A study of Mus musculus with 8 samples.

Results

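Solute carriers (Slc genes) are the transporters that move amino acids, sugars, ions, metals, vitamins and lipid precursors across membranes. They were taken as the rows of the abundance table whose mouse gene symbol is Slc, a family number, the letter a and a member number, apart from Slc1a1 and Slc1a3. This gave 176 of the 10987 transcripts listed, and the 178 rows that match the pattern include the 2 left out. By substrate they comprised 22 amino acid carriers, 15 glucose and lactate carriers, 20 metal carriers, 33 mitochondrial Slc25 carriers, 31 carriers of inorganic ions, 38 of organic ions, vitamins and lipids, 8 of nucleosides and nucleotide sugars and 7 of transmitters, taurine and creatine. The other 2, Slc4a1ap and Slc9a3r1, are an adaptor and a scaffold protein that match by symbol only.

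The study compared mouse oligodendrocyte progenitor cells (OPCs) with the oligodendrocytes made from them, by ribosome profiling and RNA-seq. OPCs were derived from epiblast stem cells of strain 129S/SvEv and grown with bFGF and PDGFA, and oligodendrocytes were obtained by passaging OPCs without bFGF and then moving them to a medium with noggin, IGF-1, cyclic AMP, NT3 and T3 (thyroid hormone). Each cell type had 2 cultures, and each culture gave a library of total RNA and a library of ribosome footprints, the fragments that MNase (micrococcal nuclease) leaves protected by ribosomes, so that there were 8 libraries. Values are FPKM, fragments scaled to length and library size, over the whole transcript for RNA-seq and over the coding sequence (CDS) for footprints. Values are given in the order of culture 1 and culture 2, and a positive log2 fold change means more in oligodendrocytes than in OPCs. Fold changes were taken after adding 0.1 to each FPKM and are given with standard errors (SE) from limma and Benjamini-Hochberg adjusted p-values over all transcripts tested, and a threshold of 0.05. FPKM are relative to the other transcripts of a library, so fewer cells of a type and less RNA per cell cannot be told apart. Where cell types are said not to overlap, this describes 2 values against 2. It was not set against a share over all transcripts and adds nothing to the test.

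A myelinating cell builds large amounts of membrane, and the supply of choline, galactose, long-chain fatty acids and inositol to that membrane depends on carriers. Monocarboxylate carriers move lactate and ketone bodies between glia and axons, and chloride cotransporters and taurine and creatine carriers set ion balance and osmolyte levels in these cells. Slc25 carriers sit in the inner mitochondrial membrane and exchange ADP and ATP, phosphate and metabolic intermediates with the cytosol. Heavy-chain partners such as Slc3a2 bring several amino acid carriers to the cell surface.

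The labels were first set against marker genes. In RNA-seq the 11 listed oligodendrocyte markers summed to 36.1 and 38.5 FPKM at the lowest and highest in OPCs and to between 3315 and 3807 in oligodendrocytes. Of 6 listed OPC markers, 4 were higher in oligodendrocytes (Pdgfra, C1ql1, Gpr17 and Lhfpl3), 1 was lower (Ccnd1) and Ptprz1 did not pass. Astrocyte markers, 6 in the table, summed to between 221 and 307 FPKM in OPCs and between 896 and 1021 in oligodendrocytes. They include Slc1a2 and the S100b gene, which oligodendrocytes also express. Most of the oligodendrocyte sum was S100b, at 20.6 and 12.6 FPKM in OPCs and 675 and 633 in oligodendrocytes. S100b, Slc1a2 and Gfap were higher in oligodendrocytes, and Aldoc, Aldh1l1 and Fgfr3 did not pass. Gfap was at 0.155 and 0 FPKM in OPCs and at 14.2 and 2.11 in oligodendrocytes. The single listed marker of microglia, endothelium or fibroblasts, Csf1r, reached at most 0.0674 FPKM. Neuron markers, 6 in the table, summed to between 118 and 132 FPKM in OPC RNA-seq and between 186 and 200 in oligodendrocytes. Of these, Tubb3 (log2 fold change 1.45, adjusted p = 0.00867 by limma) and Dcx (1.85, adjusted p = 0.00367) rose in RNA-seq and also in footprints. Map2, the largest part of the sum, did not pass in RNA-seq, nor did Syt1, Snap25 and Rbfox3. The log2 fold changes of Snap25 and Rbfox3 were negative. The part of RNA from other cell types in the results was not tested. Depth was estimated from the steps of the lowest values. It came to between 93.16 and 249.7 megabases aligned in the footprint libraries, but could not be settled in RNA-seq, where the steps allowed from 77.93 to 779.3 megabases and the order of the libraries turned with the step chosen. Footprints of oligodendrocyte culture 2, at 93.16 megabases, had 61 carriers at 0, against 28 in culture 1.

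The study examined the tRNA that reads the phenylalanine codons UUU and UUC, and solute carriers are rich in these codons. A median of 5.83% of the codons of the 176 carriers encoded phenylalanine, against 3.60% over 10985 transcripts with a CDS in the annotation. The share of these codons that were UUU was 37.5% in the carriers at the median and 42.9% over the transcripts with any. Its median was 37.8% in the 27 carriers that rose in RNA-seq and 35.7% in the 24 that fell, against 40.0% in all transcripts that rose and 46.7% in all that fell, and these differences were not tested. To show what such coding sequence looks like, the 25-codon stretch richest in phenylalanine is given below for carriers on which the results turn, from the Gencode transcript sequence, with DNA letters and phenylalanine codons in capitals. Slc44a1 (chr4:53440413-53622478, plus strand, GRCm38), Slc6a6 (chr6:91684053-91759066, plus) and Slc31a2 (chr4:62286449-62298411, plus) rose, and Slc29a1 (chr17:45585203-45595570, minus) and Slc7a5 (chr8:121881150-121907694, minus) fell. Coordinates are those of the whole transcript.
Slc44a1, codons 318 to 342: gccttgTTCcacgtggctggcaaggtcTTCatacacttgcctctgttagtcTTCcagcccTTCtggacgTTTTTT
Slc6a6, codons 72 to 96: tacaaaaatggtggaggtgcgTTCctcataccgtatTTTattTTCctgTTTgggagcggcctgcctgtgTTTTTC
Slc31a2, codons 1 to 25: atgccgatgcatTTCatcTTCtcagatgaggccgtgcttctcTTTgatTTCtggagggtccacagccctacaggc
Slc29a1, codons 383 to 407: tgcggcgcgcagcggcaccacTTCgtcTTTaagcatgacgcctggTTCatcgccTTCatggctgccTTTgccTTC
Slc7a5, codons 384 to 408: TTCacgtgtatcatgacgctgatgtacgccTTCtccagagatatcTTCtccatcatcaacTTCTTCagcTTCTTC

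Across all carriers, the choline carrier Slc44a1, the taurine carrier Slc6a6, the creatine carrier Slc6a8 and the sodium-potassium-chloride cotransporter Slc12a2 rose in oligodendrocytes in both kinds of library, and the nucleoside carrier Slc29a1, the large neutral amino acid carrier Slc7a5 and the ADP/ATP carrier Slc25a5 fell in both. In RNA-seq 130 of the 176 carriers had a mean of at least 1 FPKM and were tested, and 51 (39.2%) passed, with 27 higher and 24 lower. Over all 8346 transcripts 33.2% passed, 13.0% higher and 20.2% lower. The median log2 fold change was -0.09 in the carriers tested and -0.23 in all transcripts tested. In footprints 127 carriers were tested and 39 (30.7%) passed, 29 higher and 10 lower, where 23.6% of 8342 transcripts passed, 12.8% higher and 10.8% lower. The split in footprints depended on oligodendrocyte culture 1, without which 27 carriers were higher and 27 lower, and 1034 of all transcripts were higher and 2408 lower. Fewer carriers and fewer of all transcripts passed in footprints without oligodendrocyte culture 2. There the median log2 fold change was 0.64 for the carriers and 0.07 for all transcripts. With all libraries the median in footprints was 0.35 for the carriers and -0.16 for all. No set test was run, and a carrier that reaches the minimum only in the cell type where it is high was bound to differ.

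Of 123 carriers tested in both kinds of library, 30 (24.4%) passed in both with the same direction, against 18.7% of 8056 transcripts, and 0 passed in both with opposite directions. Of these, 20 were higher and 10 lower in oligodendrocytes. A further 9 were higher in footprints alone, of which Slc25a23, Slc25a33, Slc29a3 and Slc2a12 also passed in RNA-seq with median-ratio scaling. In RNA-seq alone 5 were higher and 12 lower, and 4 that passed in RNA-seq were under the minimum in footprints. These counts and the split of 20 and 10 were not set against shares over all transcripts and only describe the carriers. Another 42 carriers were tested in neither. Each library was also scaled by the median of ratios in place of FPKM as deposited. In RNA-seq the median of all transcripts then moved from -0.23 to -0.05. The split of carriers in RNA-seq moved from 27 higher and 24 lower to 31 higher and 18 lower. Over all transcripts it moved from 1083 higher and 1689 lower to 1344 higher and 1264 lower. None of the carrier calls that could be tested again changed sign. With the replicate number as a block, so that cultures are compared within a pair, 12 footprint calls were lost (Slc24a3, Slc25a33, Slc25a39, Slc25a44, Slc26a2, Slc27a1, Slc2a12, Slc38a10, Slc39a12, Slc43a1, Slc49a4 and Slc5a3, adjusted p between 0.0520 and 0.0946 by limma) and 1 RNA-seq call (Slc25a24, adjusted p = 0.0555). Without OPC culture 1 or OPC culture 2, when the lone OPC library is assumed to vary like the others, 7 and 5 carriers passed in RNA-seq and 0 in footprints, where 36 and 37 carriers had an unadjusted p under 0.05. These were 5.56% and 3.88% of the carriers tested in RNA-seq, against 6.41% and 4.36% of all transcripts, and in footprints 0 of all transcripts passed, with 1936 and 1927 at an unadjusted p under 0.05. Slc12a2, Slc22a23, Slc29a1, Slc44a1 and Slc6a6 passed in RNA-seq whichever of the 4 libraries was left out. The scatter of fold changes shows the 123 carriers.

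**Figure D1:**
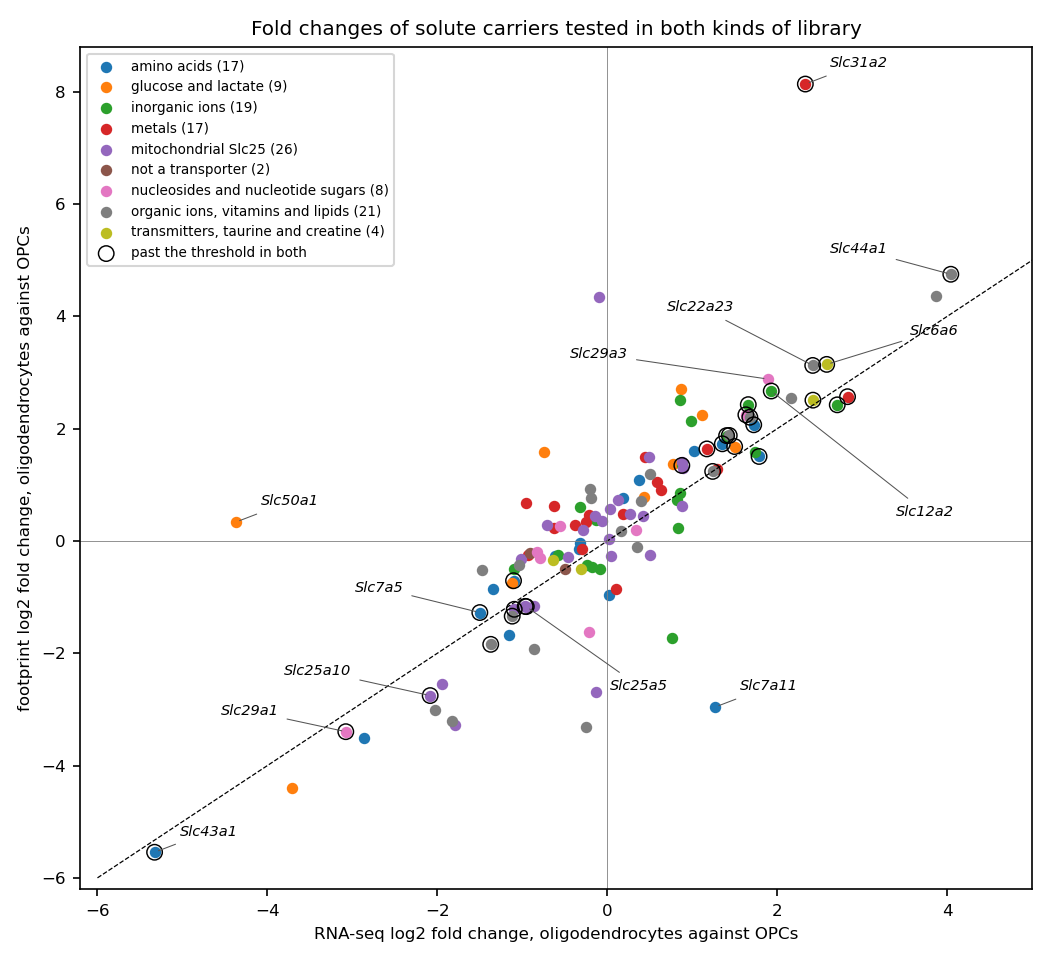
Fold changes of the 123 solute carriers tested in both kinds of library, oligodendrocytes against OPCs, in RNA-seq (x axis, log2) and in ribosome footprints (y axis, log2); each point is a carrier coloured by substrate class with the number of points in brackets, circles mark the 30 that passed the threshold in both, and the dashed line marks equal change. The 30 circled carriers lie in the upper right or lower left, and Slc31a2, whose footprints were at 0 in OPCs, lies farthest above the line.

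Among carriers of organic ions, vitamins and lipids, 8 rose and 6 fell of 24 tested in RNA-seq, and 5 rose and 2 fell of 21 in footprints. Over all transcripts 13.0% rose and 20.2% fell in RNA-seq and 12.8% and 10.8% in footprints, here and for the classes that follow. With the replicate block the footprint count was 5 rises and 0 falls. Without oligodendrocyte culture 1 more of these carriers, and more of all transcripts, fell in footprints. The median log2 fold change of these carriers in footprints was 0.71, 0.49 without oligodendrocyte culture 1 and 0.78 without oligodendrocyte culture 2. For all transcripts the median was -0.16, -0.31 and 0.07 in turn. Slc44a1, which brings choline into the cell for phospholipid synthesis, had 11.8 and 17.2 FPKM in OPC RNA-seq and 262 and 214 FPKM in oligodendrocytes. Its footprints went from 11.9 and 15.8 to 372 and 374 FPKM. Both cultures of oligodendrocytes were thus far above both of OPCs, with a fold of means of 16.4 in RNA-seq and 26.9 in footprints. The log2 fold change was 4.04 (SE 0.23, adjusted p = 4.93e-04 by limma) in RNA-seq and 4.75 (SE 0.18, adjusted p = 0.00297) in footprints. Slc44a1 made up 50.8% and 49.0% of the summed RNA-seq FPKM of its class in oligodendrocytes. Its footprints did not pass when either OPC library was left out, with an adjusted p of at most 0.0880 over 12 settings.

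Slc22a23, a member of the organic ion carrier family whose substrate is not established, went from 8.08 and 9.60 to 49.6 and 45.6 FPKM in RNA-seq and from 9.30 and 10.0 to 81.5 and 89.1 FPKM in footprints. The rise was 2.42 (SE 0.20, adjusted p = 0.00119 by limma) in RNA-seq and 3.13 (SE 0.18, adjusted p = 0.00416) in footprints, on the log2 scale. Lipid-linked members moved in both directions. Slc27a4, a fatty acid transport protein, rose from 19.9 and 13.8 to 48.7 and 41.7 FPKM in RNA-seq. Slc27a1, another fatty acid transport protein, fell from 36.1 and 34.2 to 15.1 and 17.2 FPKM, and both passed in footprints too. Likewise for inositol, a precursor of phosphoinositides, the proton-coupled Slc2a13 rose from 3.67 and 4.003 to 13.2 and 11.8 FPKM in RNA-seq, whereas the sodium-coupled Slc5a3 fell from 26.7 and 17.9 to 7.33 and 9.59 FPKM. In footprints Slc2a13 rose from 5.84 and 6.06 to 30.3 and 25.5 FPKM and Slc5a3 fell from 36.8 and 35.3 to 14.4 and 6.95 FPKM. No cultures of the 2 cell types overlapped for these 4 genes, which were chosen after they had passed in both kinds of library.

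Slc16a12, a carrier of creatine in other tissues, was at 0.0624 and 0.119 FPKM in OPC RNA-seq and 3.23 and 2.19 in oligodendrocytes, and its footprints, 0 and 0 against 4.03 and 0.935 FPKM, did not pass. The carnitine carrier Slc22a5 rose in RNA-seq from 1.47 and 1.80 to 7.58 and 7.69 FPKM, and the related Slc22a21 from 0.603 and 0.658 to 5.23 and 4.83. The latter pair is uncertain, because 34.0% of the 30-base words of the Slc22a5 CDS and 31.3% of those of Slc22a21 also occur in other genes' transcripts, the other of the pair among them. The folate carrier Slc46a1 and the thiamine carrier Slc19a2 fell in RNA-seq only, Slc46a1 from 9.79 and 8.21 to 4.21 and 2.37 FPKM and Slc19a2 from 12.1 and 12.1 to 6.25 and 6.97. The Slc19a2 call was lost with median-ratio scaling (adjusted p = 0.0762 by limma).

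Of the carriers of transmitters, taurine and creatine, 4 of 7 were tested. Slc6a6, which takes up taurine, had 6.36 and 4.53 FPKM in OPC RNA-seq and 36.4 and 29.3 in oligodendrocytes. Its footprints were 21.0 and 19.1 against 181 and 175 FPKM. The cell types did not overlap, and the log2 fold changes were 2.58 (SE 0.26, adjusted p = 0.00218 by limma) and 3.15 (SE 0.13, adjusted p = 0.00297). Slc6a8, which takes up creatine, rose from 11.6 and 9.83 to 72.4 and 45.9 FPKM in RNA-seq and from 6.85 and 12.9 to 49.2 and 59.3 FPKM in footprints. Gatm, the enzyme of the committing step of creatine synthesis, was on the partner list. It rose with Slc6a8, from 7.08 and 3.91 to 76.9 and 54.2 FPKM in RNA-seq. The next enzyme, Gamt, rose from 28.8 and 31.1 to 43.2 and 48.9 FPKM in RNA-seq. Footprints of Gatm passed, and those of Gamt did not (adjusted p = 0.0877 by limma). The GABA carrier Slc6a11 had 60.4 and 54.2 against 52.2 and 40.8 FPKM and did not pass.

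Carriers of inorganic ions gave 6 rises and 1 fall of 20 tested in RNA-seq and 6 rises and 0 falls of 20 in footprints. The fall, that of the organellar sodium/proton exchanger Slc9a7 from 7.31 and 8.08 to 3.81 and 3.26 FPKM, was lost with median-ratio scaling. The count of falls in RNA-seq was 2 with the replicate block, with a pseudocount of 1 or with a minimum of 5 FPKM. Of all transcripts 13.0% rose and 20.2% fell in RNA-seq and 12.8% and 10.8% in footprints. The count of rises in footprints was 4 with the replicate block. Fewer of these carriers, and of all transcripts, rose in footprints without oligodendrocyte culture 2. The footprint calls were lost when either OPC culture was left out, as they were over all transcripts. Slc12a2, known as NKCC1, brings chloride into the cell. It had 32.8 and 33.4 FPKM in OPC RNA-seq and 140 and 114 in oligodendrocytes, and its footprints were 40.9 and 49.7 against 287 and 289 FPKM. Neither kind of library overlapped between the cell types, and the rise was 1.93 (SE 0.17, adjusted p = 0.00142 by limma) in RNA-seq and 2.67 (SE 0.14, adjusted p = 0.00414) in footprints. Slc12a4, a potassium-chloride cotransporter that moves chloride outward, rose less, from 16.9 and 19.0 to 32.5 and 33.5 FPKM. Slc24a3, a potassium-dependent sodium/calcium exchanger, had 1.41 and 1.01 FPKM in OPCs and 9.32 and 7.49 in oligodendrocytes, and the anion exchanger Slc4a2 had 13.8 and 11.2 against 34.9 and 31.3. The Slc4a2 transcript shares 694 bases with exons of Fastk on the opposite strand, and the study's counting command gave no strand option. Slc26a2, which brings in sulphate, passed in footprints only, with 2.74 and 2.46 against 12.2 and 19.1 FPKM, where its RNA-seq values were 2.99 and 3.44 against 5.26 and 6.62.

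**Figure D2:**
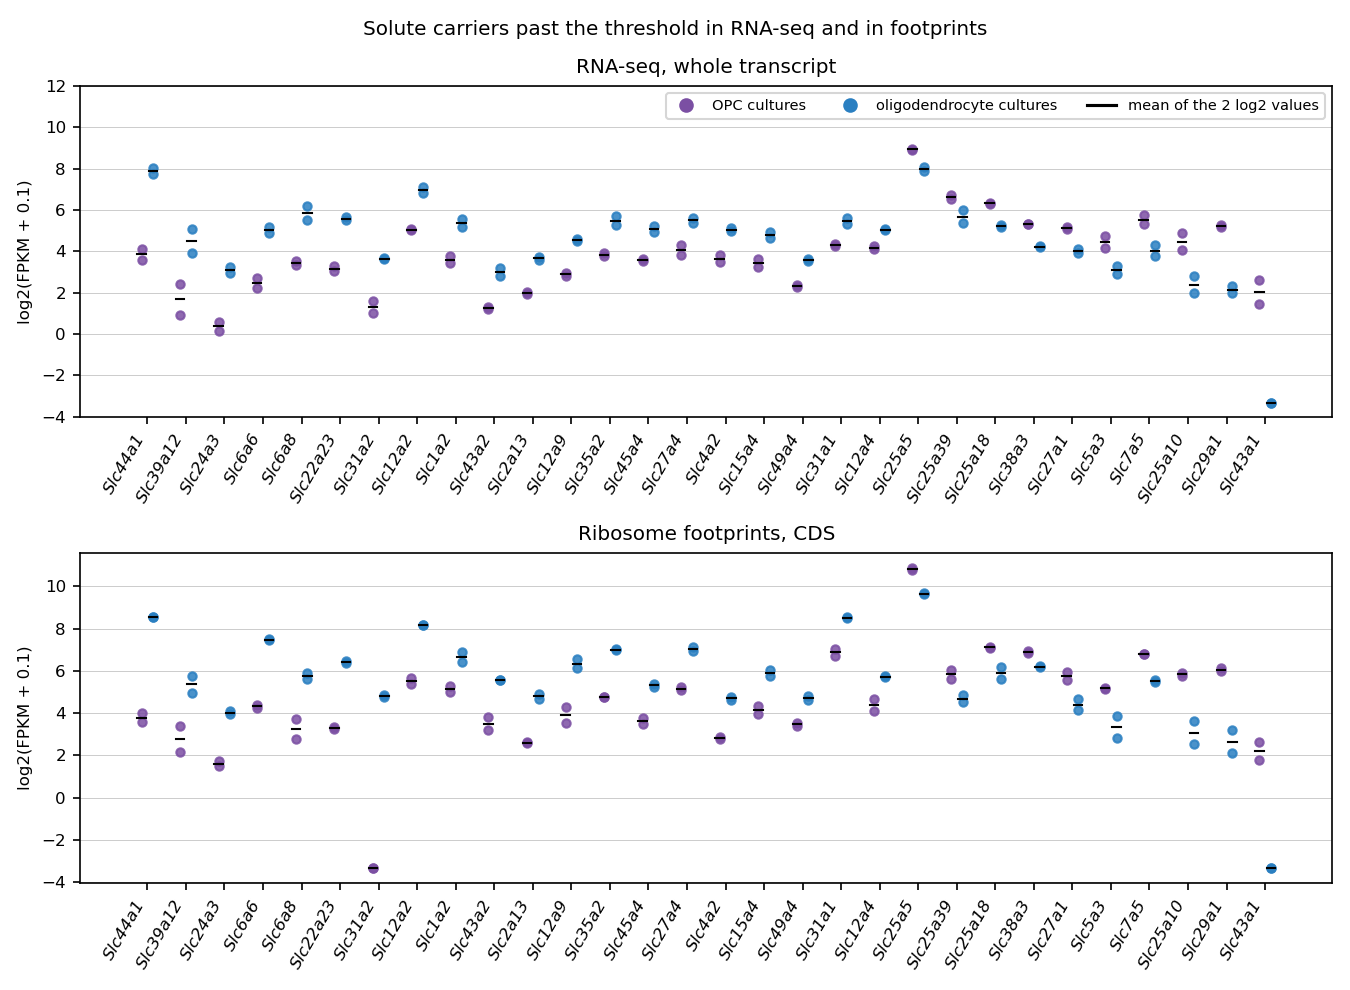
FPKM of the 30 solute carriers that passed the threshold in RNA-seq and in footprints, as log2(FPKM + 0.1) on the y axes, in each library; purple points are the 2 OPC cultures, blue points the 2 oligodendrocyte cultures, and bars the mean of the 2 log2 values, with genes ordered by their RNA-seq fold change. The 20 genes on the left, from Slc44a1 to Slc12a4, were higher in both oligodendrocyte cultures and the 10 on the right, from Slc25a5 to Slc43a1, lower in both.

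Metal carriers gave 4 rises and 0 falls of 17 tested in RNA-seq, where 13.0% of all transcripts rose and 20.2% fell, and 3 rises and 0 falls of 17 in footprints, where 12.8% rose and 10.8% fell. The count of falls in RNA-seq was 1 with the replicate block, with a pseudocount of 1 or with a minimum of 5 FPKM. Without the trend of variance on abundance the rises were 2 in each kind, and in footprints also 2 with the replicate block. Rises were fewer in both kinds when either oligodendrocyte culture was left out. Without oligodendrocyte culture 1 falls appeared in both kinds, and the median log2 fold change in RNA-seq was -0.21, against 0.10 with all libraries. Without either OPC culture there were 0 rises and 0 falls in both kinds. Both copper carriers rose. Slc31a1 (CTR1), which brings copper into the cell, went from 20.3 and 18.8 to 49.1 and 39.8 FPKM in RNA-seq and from 133 and 104 to 357 and 376 FPKM in footprints. Slc31a2 (CTR2), found in endosomes and lysosomes, went from 1.95 and 2.91 to 12.2 and 12.6 FPKM in RNA-seq (log2 fold change 2.33, SE 0.33, adjusted p = 0.00530 by limma). Its footprints were listed at 0 in both OPC cultures and at 27.2 and 29.0 FPKM in oligodendrocytes, so that no fold is given for footprints. The CDS of Slc31a2 has 429 bases, and at the estimated depth 1 FPKM in the footprints of OPC culture 1 corresponds to 3.57 reads of 30 bases.

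Slc39a12, a zinc importer, rose from 1.82 and 5.20 to 34.1 and 14.9 FPKM in RNA-seq and from 4.44 and 10.5 to 54.1 and 31.2 FPKM in footprints. The oligodendrocyte culture with more Slc39a12 was also the culture with more Gfap, and the part of astrocyte RNA in these values was not tested. Slc30a9 rose in RNA-seq only, from 22.5 and 23.8 to 36.3 and 35.6 FPKM. Slc11a2 (DMT1), which carries ferrous iron, had 10.0 and 14.5 FPKM in OPC RNA-seq and 8.51 and 7.17 in oligodendrocytes and did not pass (adjusted p = 0.145). Tfrc, the transferrin receptor that feeds iron to it, fell in RNA-seq from 80.0 and 115 to 50.4 and 58.6 FPKM. Its footprints, 167 and 264 against 124 and 201 FPKM, overlapped and did not pass (adjusted p = 0.426 by limma). The iron exporter Slc40a1 was at 0 in 7 libraries and at 0.146 FPKM in the RNA-seq of oligodendrocyte culture 1. Slc30a1 and Slc39a14 did not pass in either kind of library.

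Amino acid carriers gave 4 rises and 4 falls of 17 tested in RNA-seq and 4 rises and 3 falls of 18 in footprints, where the shares over all transcripts were 13.0% and 20.2% in RNA-seq and 12.8% and 10.8% in footprints. The footprint count was 3 rises and 2 falls with the replicate block. The median log2 fold change of these carriers in footprints was -0.21, -0.36 without oligodendrocyte culture 1 and -0.14 without oligodendrocyte culture 2. More of them, and of all transcripts, fell without oligodendrocyte culture 1, and fewer rose or fell without oligodendrocyte culture 2. Slc7a5 (LAT1), which exchanges large neutral amino acids at the cell surface, fell from 53.2 and 39.7 to 13.5 and 19.5 FPKM in RNA-seq and from 110 and 112 to 43.9 and 47.7 FPKM in footprints. The log2 fold changes were -1.50 (SE 0.26, adjusted p = 0.00944 by limma) and -1.27 (SE 0.12, adjusted p = 0.00899). Its heavy-chain partner Slc3a2 did not pass, at 49.1 and 53.3 against 40.3 and 41.6 FPKM in RNA-seq and 150 and 161 against 141 and 161 FPKM in footprints. Slc43a1, a facilitated carrier of the same amino acids, had 5.90 and 2.59 FPKM in OPCs and 0 and 0 in oligodendrocytes, and footprints of 3.35 and 6.21 against 0 and 0. The related Slc43a2 went the other way, from 2.39 and 2.20 to 8.91 and 6.83 FPKM in RNA-seq and from 8.96 and 13.9 to 47.1 and 47.3 FPKM in footprints. The cationic amino acid carrier Slc7a1 fell in RNA-seq from 20.4 and 15.4 to 6.94 and 6.85 FPKM, and the glutamine carrier Slc38a3 fell from 39.6 and 40.5 to 19.0 and 18.2. Slc15a4, a lysosomal carrier of histidine and peptides, rose from 9.27 and 12.4 to 30.7 and 24.8 FPKM.

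The glial glutamate carrier Slc1a2 rose from 13.5 and 10.6 to 47.6 and 36.5 FPKM in RNA-seq and from 32.0 and 39.0 to 119 and 84.8 in footprints. It is itself among the astrocyte markers, whose values are given above. Glul, which turns glutamate into glutamine, rose from 108 and 97.1 to 201 and 157 FPKM. Slc7a11, the cystine/glutamate exchanger that feeds glutathione synthesis, rose in RNA-seq from 13.5 and 14.1 to 30.1 and 36.9 FPKM (log2 fold change 1.27, SE 0.20, adjusted p = 0.00698 by limma). In footprints it had 5.36 and 4.46 FPKM in OPC cultures and 4.01 and 0 in oligodendrocyte cultures and did not pass (adjusted p = 0.341). The difference between the kinds of library did not pass either (unadjusted p = 0.0944, adjusted p = 0.875 by limma). Gclm, a subunit of the rate-limiting enzyme of glutathione synthesis, fell in RNA-seq from 25.5 and 22.0 to 13.2 and 8.58 FPKM and in footprints from 157 and 142 to 70.9 and 40.9. The other subunit, Gclc, had 20.8 and 20.0 against 19.3 and 15.7 FPKM in RNA-seq. It did not pass in RNA-seq (adjusted p = 0.419 by limma) or in footprints (adjusted p = 0.509).

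Glucose and lactate carriers gave 2 rises and 3 falls of 10 tested in RNA-seq and 4 rises and 0 falls of 10 in footprints. The footprint count was 3 rises and 0 falls with the replicate block. More of these carriers and of all transcripts fell without oligodendrocyte culture 1, and fewer rose without oligodendrocyte culture 2. The median log2 fold change of these carriers in footprints was 1.07, 1.27 without oligodendrocyte culture 1 and 1.69 without oligodendrocyte culture 2. Slc16a1 (MCT1), through which oligodendrocytes release lactate, had 35.5 and 41.7 FPKM in OPC RNA-seq and 19.8 and 15.8 in oligodendrocytes (log2 fold change -1.12, SE 0.20, adjusted p = 0.0117 by limma). Its footprints, 95.3 and 132 against 71.9 and 62.4 FPKM, were lower in both oligodendrocyte cultures and did not pass (adjusted p = 0.0781). Bsg (basigin), the chaperone that takes Slc16a1 to the membrane, rose from 188 and 180 to 364 and 345 FPKM in RNA-seq. Ldha, the lactate dehydrogenase subunit that favours lactate, fell from 244 and 239 to 50.4 and 84.3 FPKM. The other subunit, Ldhb, had 47.3 and 58.3 against 55.5 and 44.8 FPKM and did not pass (adjusted p = 0.791 by limma). The mitochondrial pyruvate carrier subunits Mpc1 and Mpc2 rose, from 67.7 and 85.8 to 182 and 177 FPKM and from 52.9 and 58.4 to 149 and 157. Of 29 transporter partner genes tested in RNA-seq 8 rose and 5 fell, where 13.0% of all transcripts rose and 20.2% fell, and of 30 in footprints 8 rose and 2 fell, where 12.8% rose and 10.8% fell.

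Slc2a1 (GLUT1), the main glucose carrier, was at 15.1 and 13.5 FPKM in OPC RNA-seq and 24.3 and 15.4 in oligodendrocytes and did not pass. Its footprints rose from 52.2 and 53.1 to 85.8 and 95.1 FPKM (log2 fold change 0.78, SE 0.13, adjusted p = 0.0243 by limma, or 0.0521 with median-ratio scaling). Slc2a12 (GLUT12) rose in footprints from 2.48 and 1.92 to 13.2 and 8.83 FPKM and Slc2a8 (GLUT8) from 2.34 and 3.79 to 17.4 and 22.9. Whether the change in footprints differs from that in RNA-seq is the test of ribosome density, given below, which none of these passed. Slc45a4 rose in both kinds, from 11.5 and 12.3 to 37.4 and 30.6 FPKM in RNA-seq. Slc2a9, a urate carrier, fell in RNA-seq from 5.96 and 5.03 to 0.272 and 0.392 FPKM. Slc16a8 rose in RNA-seq from 0.192 and 0.320 to 2.77 and 2.51, and in RNA-seq Slc2a3 reached at most 1.25 FPKM and Slc16a3 at most 0.392.

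**Figure D3:**
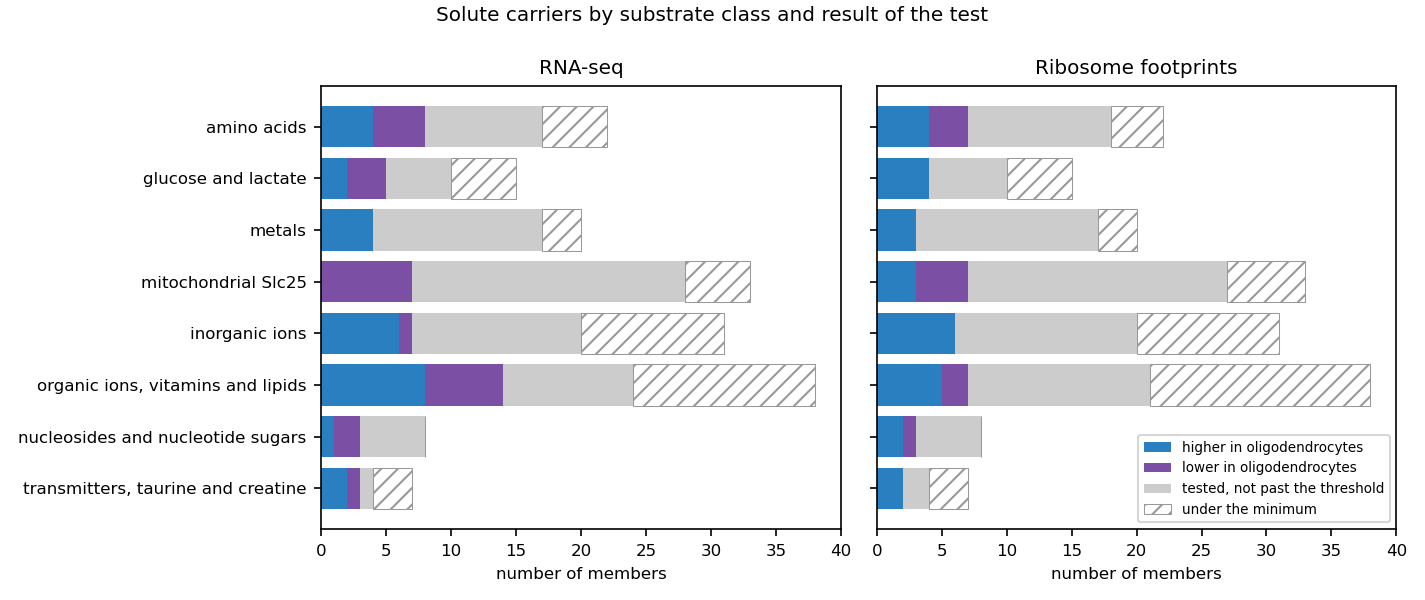
Number of solute carriers in each substrate class (x axis) by the outcome of the limma test, in RNA-seq (left) and footprints (right); blue is higher and purple lower in oligodendrocytes, grey was tested and did not pass, and hatched was under a mean of 1 FPKM. With all 8 libraries and no block, metal carriers show no purple in either panel, and the Slc25 carriers show no blue in RNA-seq.

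Mitochondrial Slc25 carriers gave 0 rises and 7 falls of 28 tested in RNA-seq, or 2 rises and 6 falls with median-ratio scaling. In footprints they gave 3 rises and 4 falls of 27, or 2 rises and 3 falls with the replicate block. Their median log2 fold change in footprints was 0.19, -0.34 without oligodendrocyte culture 1 and 0.34 without oligodendrocyte culture 2. Over all transcripts 13.0% rose and 20.2% fell in RNA-seq, so that the count of falls lay near the share over all transcripts, and 12.8% rose and 10.8% fell in footprints. Together they held 46.3% and 47.6% of the summed RNA-seq FPKM of all 176 carriers in OPCs and 33.7% and 35.7% in oligodendrocytes. In footprints the share was 55.2% and 55.4% against 37.6% and 39.1%. Of the FPKM of all listed transcripts, the Slc25 carriers held 0.399% and 0.398% in OPC RNA-seq and 0.365% and 0.347% in oligodendrocytes. In footprints they held 0.350% and 0.417% against 0.351% and 0.391%, where the cell types overlapped. Their summed footprint FPKM was 3144 and 3499 in OPCs and lower, at 2593 and 2606, in oligodendrocytes. Slc25a5 alone made up 55.1% and 54.0% of this sum in OPCs, and it fell by more FPKM than the sum did. The fall of their share among carriers in footprints thus went with the fall of Slc25a5 and with higher values of other carriers. It was not a fall of the class at large. Slc25a5, an ADP/ATP carrier isoform of proliferating cells, fell from 495 and 484 to 271 and 235 FPKM in RNA-seq and from 1734 and 1890 to 798 and 813 FPKM in footprints. The log2 fold changes were -0.95 (SE 0.15, adjusted p = 0.00781 by limma) and -1.17 (SE 0.12, adjusted p = 0.00961). Slc25a4, the isoform of heart, muscle and brain, had 287 and 315 against 351 and 376 FPKM in RNA-seq and 810 and 946 against 1178 and 1272 in footprints. Slc25a4 did not pass (adjusted p = 0.209 and 0.0788 by limma). Neither kind overlapped, and its footprints passed with the replicate number as a block (adjusted p = 0.0256 by limma). Slc25a5 thus led Slc25a4 in each OPC library and followed it in each oligodendrocyte library. Of the 30-base words of the Slc25a5 CDS, 86.2% also occur in transcripts of other genes, mainly processed pseudogenes, and 0% of those of Slc25a4 do.

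Slc25a10, the dicarboxylate carrier, fell from 29.2 and 16.5 to 6.87 and 3.79 FPKM in RNA-seq and from 60.1 and 53.9 to 12.2 and 5.73 FPKM in footprints. The glutamate carrier Slc25a18 fell from 79.1 and 82.0 to 39.0 and 36.4 FPKM and Slc25a39, a mitochondrial glutathione importer, from 105.5 and 93.3 to 62.7 and 41.1. Among the calcium-dependent ATP-Mg/phosphate carriers, Slc25a25 fell in RNA-seq from 20.6 and 17.3 to 6.04 and 3.82 FPKM, and Slc25a24 also fell in RNA-seq, a call lost with the replicate block (adjusted p = 0.0555 by limma) and with median-ratio scaling. Neither passed in footprints (adjusted p = 0.115 and 0.239). Slc25a23 rose in footprints from 15.1 and 11.4 to 34.7 and 35.2 FPKM and did not pass in RNA-seq (adjusted p = 0.0544). The pyrimidine nucleotide carrier Slc25a33 and the branched-chain amino acid carrier Slc25a44 rose in footprints, from 13.1 and 15.7 to 43.2 and 29.1 FPKM and from 5.71 and 6.35 to 18.7 and 15.8. The aspartate/glutamate carrier Slc25a12 did not pass, at 8.66 and 10.99 against 7.60 and 6.55 FPKM in RNA-seq, and its isoform Slc25a13 fell from 2.44 and 1.89 to 0.244 and 0.

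All 8 carriers of nucleosides and nucleotide sugars were tested. Slc29a1 (ENT1), the equilibrative carrier of adenosine and other nucleosides at the cell surface, had 38.4 and 36.0 FPKM in OPC RNA-seq and 3.79 and 4.93 in oligodendrocytes. Its footprints were 63.5 and 69.2 against 9.09 and 4.22 FPKM. OPCs were thus 8.54-fold higher in RNA-seq and 9.96-fold higher in footprints by the means, with log2 fold changes of -3.08 (SE 0.24, adjusted p = 0.00102 by limma) and -3.40 (SE 0.43, adjusted p = 0.0145). Slc29a3 (ENT3), the lysosomal nucleoside carrier, rose in footprints from 3.75 and 3.87 to 34.3 and 24.2 FPKM (adjusted p = 0.0129), and its RNA-seq values were 0.904 and 0.726 against 5.14 and 2.09 FPKM (adjusted p = 0.0637). Slc35a2, which takes UDP-galactose into the Golgi for galactolipid and glycoprotein synthesis, rose from 14.9 and 13.6 to 38.0 and 51.6 FPKM in RNA-seq and from 27.1 and 26.8 to 125 and 132 in footprints. Ugt8a, the enzyme that uses UDP-galactose for the myelin lipid galactosylceramide and is on the oligodendrocyte marker list, rose from 5.97 and 5.63 to 224 and 257 FPKM. Slc35a4 fell in RNA-seq only, a call lost with median-ratio scaling, from 43.7 and 31.5 to 23.8 and 18.3 FPKM, and 59.8% of its CDS words occur in a pseudogene transcript.

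Ribosome density (RD), footprint FPKM over RNA-seq FPKM, asks whether footprints changed more than the RNA. Of 123 carriers tested 0 passed, 10 had an unadjusted p under 0.05, and 1 of 8056 transcripts (0.0124%) passed, with 387 under 0.05. The footprint change lay above the RNA-seq change in 80 of the 123 and in 4650 of the 8056 transcripts, and the median difference was 0.35 against 0.10 over all transcripts, or 0.19 against -0.06 with median-ratio scaling. The median RD of the carriers was 1.48 and 1.76 in the OPC cultures and 2.07 and 2.25 in the oligodendrocyte cultures, where all transcripts had 1.72 and 1.77 against 2.02 and 1.95. The 2 kinds of value rest on different lengths, so an RD is relative and not a number of ribosomes. Slc31a2 had the lowest p (unadjusted 7.58e-05, adjusted p = 0.153 by limma) and passed only without the trend of variance on abundance, among settings that keep the 8 libraries.

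Some carriers had reads in only 1 kind of library. Slc24a5, a potassium-dependent sodium/calcium exchanger of melanosomes, had 27.0 and 41.5 FPKM in OPC RNA-seq and 20.3 and 18.3 in oligodendrocytes and was at 0 in all 4 footprint libraries. At the estimated depth 1 FPKM in its CDS corresponds to between 4.67 and 12.5 reads of 30 bases. Of the 1954 bases of its transcript, 921 overlap exons of Myef2 on the opposite strand, and the counts of these genes cannot be told apart without strand. In all, 21 carriers were at 0 in the 4 footprint libraries and 3 (Slc12a8, Slc22a4 and Slc2a4) in the 4 RNA-seq libraries. Slc50a1, a sugar carrier, had 1.48 and 2.62 FPKM in OPC RNA-seq and 0 and 0 in oligodendrocytes, yet its footprints were 5.62 and 0 against 9.02 and 0, at 0 in culture 2 of both cell types.

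**Figure D4:**
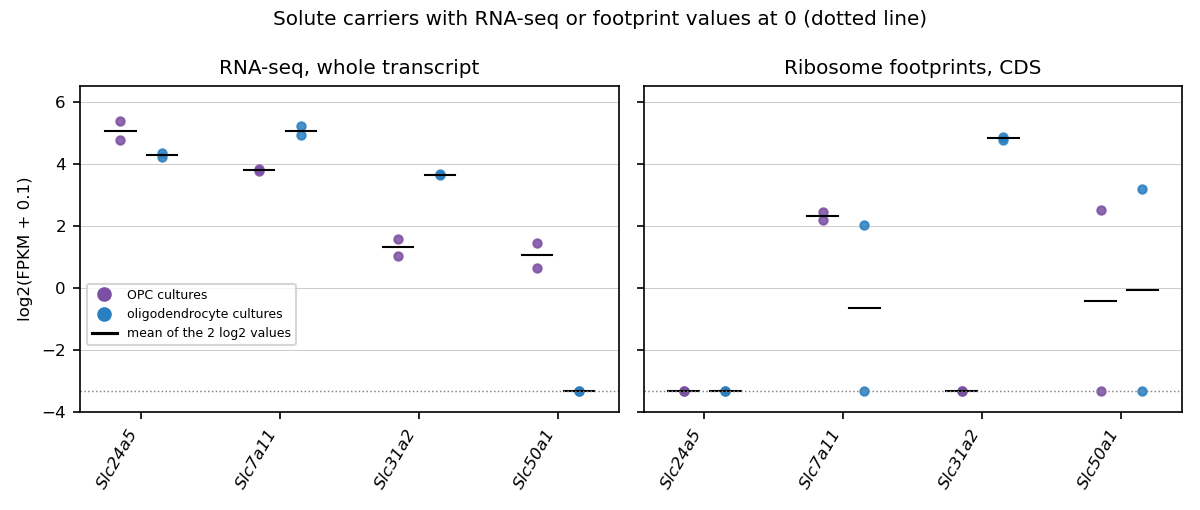
RNA-seq (left) and footprint (right) values of 4 solute carriers as log2(FPKM + 0.1) on a shared y axis; purple points are the 2 OPC cultures, blue points the 2 oligodendrocyte cultures, bars the mean of the 2 log2 values, and the dotted line is a value of 0 FPKM. Slc24a5 lies on the dotted line in all 4 footprint libraries, Slc31a2 in the 2 OPC footprint libraries and Slc50a1 in the 2 oligodendrocyte RNA-seq libraries.

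Promoters, 250 bases before to 50 after the start in RefSeq (GRCm38.p6), were at hand for 134 of the 176 carriers, and 5 motifs were searched on both strands. Many genes have several RefSeq starts, and a gene counted if any of its promoters held the motif. AACAAAG, a SOX motif, occurred in 3.73% of the carriers, 6.68% of 27025 genes and 5.02% of 8866 genes of the table. CTGGCAC, a MYRF motif, occurred in 8.21%, 5.73% and 5.96%. The metal response core, TGCACNC or TGCGCNC, occurred in 41.0%, 28.2% and 39.5%, and CCAAT in 46.3%, 41.1% and 43.6%. The E-box was picked out of the 5 after the shares were seen. The palindromic E-box CACGTG, which reads the same on both strands, occurred in 25 of 134 (18.7%), against 8.09% of 27025 genes and 10.9% of 8866 genes of the table. Among carriers that passed in RNA-seq or footprints or both it was found in 6 of 19 that fell (31.6%) and 5 of 29 that rose (17.2%). For Slc27a1, Slc29a1 and Slc43a1, which fell, the E-box lay downstream of the start of the listed transcript. It preceded another RefSeq start there, so it is not in the promoter of the transcript measured. The match is a description and not a bound site. Windows around it (E-box in capitals, 5′ to 3′ on the gene's strand) are given for carriers that fell, Slc16a1 (chr3:104638452-104638481, plus), Slc29a1 (chr17:45595304-45595333, minus) and Slc43a1 (chr2:84840247-84840276, plus), and for carriers that rose, Slc12a9 (chr5:137333671-137333700, minus) and Slc49a4 (chr16:35769560-35769589, minus).
Slc16a1: gcggcgccgggtCACGTGgcgggaaggggg
Slc29a1: gagcagcgccagCACGTGgcgcgcatgggc
Slc43a1: agggtctccctcCACGTGgcagccgtggga
Slc12a9: acacccgagacgCACGTGgaacggtttggc
Slc49a4: ttgtttattaggCACGTGatgtaaacttgg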

How the data were processed

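OPCs and oligodendrocytes, 2 cultures each, gave libraries of total RNA and of ribosome footprints. The authors deposited FPKM values, computed for RNA-seq over whole transcripts and for footprints over coding sequences. Adapters were trimmed with fastx_clipper, reads were mapped to GRCm38 with HISAT2 2.1.0 and values tabulated with StringTie 1.3.5 and ballgown, versions per the submitters' processing notes, on canonical coding transcripts of a Gencode annotation. Replicates were not pooled.

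FPKM were used without further scaling, and all 8 columns were used. Differential abundance was tested by limma 3.58.1 (R 4.3.3), two-sided, on log2(FPKM + 0.1) with a variance trend, where the mean reached 1 FPKM, in 4 libraries of a kind or, for RD, as the interaction over 8 libraries. P-values were adjusted over all transcripts after Benjamini and Hochberg, and the threshold was 0.05. Depth was estimated from the steps of low values, since read counts are not part of these values. The main fits had no replicate block, so their p-values leave out the pairing of cultures and, in RD, of the 2 libraries of a culture. Fits with a block paired cultures of the same number or, for RD, the 2 libraries of a culture. The methods state that oligodendrocytes came from the corresponding OPC replicates. Deviations of cultures sharing a number correlated only weakly, at 0.108 in RNA-seq (8346 transcripts, 2 pairs) and 0.086 in footprints. P-values measure the spread between these cultures only.

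Coordinates, exons and CDS came from Gencode vM21 (GRCm38), in which all 176 carriers were found. Carriers and lists were chosen with earlier results of these data known. Carriers to name comprised a fixed list, the 3 largest rises and falls of each substrate class by kind of library, and those at odds between kinds or at 0 in a group. Slc12a4, Slc12a8, Slc12a9, Slc19a1, Slc19a2, Slc22a4, Slc22a5, Slc22a23, Slc24a5, Slc25a18, Slc25a24, Slc25a39, Slc27a1, Slc27a4, Slc2a4, Slc2a13, Slc30a9, Slc33a1, Slc37a3, Slc38a3, Slc39a10, Slc49a4, Slc4a2, Slc5a3 and Slc6a11 fall outside this rule and were chosen after their values were seen. Some carriers and partner genes are not reported here.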

Additional observations from a re-analysis of the deposited data

How the results depend on the processing

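With 51 carriers past the threshold in RNA-seq, alternatives that keep all libraries gave between 42 and 56: 54 and 48 with pseudocounts of 1 and 0.01, 46 with no minimum, 42 with a minimum of 5 FPKM, 49 with median-ratio scaling, 46 without the variance trend and 56 with the replicate number as a block. Leaving out a library gave between 5 and 53. In footprints 39 became 24 without the trend, 29 with the replicate block and between 0 and 54 without a library, the latter without oligodendrocyte culture 1 and 14 without culture 2. In RD 0 became 1 without the trend, 0 with the replicate block and between 0 and 11 without a library, 11 being without oligodendrocyte culture 1. Without oligodendrocyte culture 1 a larger share of all transcripts than of the carriers passed in RD, so the RD calls there are not particular to carriers. The median log2 fold change in RD was then 0.39 for the carriers and 0.03 for all transcripts. The replicate block kept 50 of the 51 RNA-seq calls and 27 of the 39 in footprints. It brought 6 RNA-seq results (Slc19a1, Slc24a5, Slc25a23, Slc25a33, Slc29a3 and Slc39a10, adjusted p between 0.0127 and 0.0468 by limma) and footprints of Slc25a4 and Slc33a1 under the threshold. Median-ratio scaling took RNA-seq of Slc19a2, Slc25a24, Slc35a4 and Slc9a7, among others, and footprints of Slc2a1, Slc38a10 and Slc38a3 over it, and brought RNA-seq of Slc25a23, Slc25a33, Slc29a3 and Slc2a12 (adjusted p between 0.0260 and 0.0465 by limma) and footprints of Slc37a3 (0.0446) under it. The median RD of carriers was 1.60 in OPCs and 2.18 in oligodendrocytes with a minimum of 5 FPKM, against 1.62 ± 0.20 and 2.16 ± 0.13 (SD, n = 2). Without a library in turn, log2 fold changes in footprints, none past the threshold with all libraries, crossed 0 for Slc11a2 (-0.082 to 0.55), Slc2a3 (-2.30 to 2.17), Slc35a4 (-0.41 to 0.0064), Slc3a2 (-0.14 to 0.056) and Slc50a1 (-2.92 to 3.59). The causes were not tested. Leaving out either OPC library took away most RNA-seq calls and the footprint calls. Footprints at low FPKM rest on few reads, fewest in oligodendrocyte culture 2.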
